A study of Mus musculus with 2040 samples.

Results

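The transcription factors described here are known for building the oligodendrocyte lineage: Olig1, Olig2, Sox10, Sox8, Myrf, Nkx6-2, Nkx2-2, Tcf7l2, Zfp536 and St18. They were listed by name, with earlier results of these data known, and 10 of 10 were found among the 32245 gene columns of the cell-by-gene table. Levels were read in sorted single cells of the mouse brain, with the mouse as the replicate. Each cell had been labelled by an enhancer-AAV, a virus in which a short enhancer or promoter drives the yellow fluorescent protein SYFP2. In all, 2040 cells came from 47 C57Bl/6J mice, each given 1 of 30 vectors.

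All groups share the strain, the reporter and the AAV injection, and no group without virus was analysed here. The labels give the tissue, the vector, the mouse and the plate of each cell, and no age. VISp, primary visual cortex, was taken from 41 mice with 27 vectors. MB/HB (midbrain and hindbrain) was taken from 4 mice, a pair given eHGT_381h and a pair given MGT_E160m. CBX (cerebellar cortex) was taken from 2 mice, both given eHGT_375m. Mice of a vector are numbered 1 and 2 by their label, and MB/HB values are always given in the order eHGT_381h mouse 1, eHGT_381h mouse 2, MGT_E160m mouse 1, MGT_E160m mouse 2. Each vector belonged to a single tissue, so tissue and vector cannot be told apart. The sort kept SYFP2-positive cells, so each vector also chose which cells were seen.

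Cell classes were rebuilt from clusters in which none of the 10 factors was used. They gave 940 oligodendrocyte-like cells from VISp, 970 astrocyte-like cells (739 from VISp, 150 from MB/HB and 81 from CBX) and 99 neuron-like cells. Of 12 oligodendrocyte markers, 12 were detected in most cells of each oligodendrocyte-like cluster, and Mog, a myelin surface protein, had a read in 100% of the 940 cells. The astrocyte-like cells lay in different clusters by tissue: clusters 1, 2 and 9 held most of those from VISp, cluster 4 those from MB/HB and cluster 7 those from CBX. Cluster 7 had 12 of 12 astrocyte markers in most of its cells, but none of them was among its top 10 genes, which Pltp and Gdf10 led. One cluster of 25 cells carried oligodendrocyte and neuron markers together and stayed unnamed. The oligodendrocyte-like cells had a median depth of 442974 reads, compared with 431572, 412596 and 375425 in the astrocyte-like cells of VISp, MB/HB and CBX. The median number of genes detected was 4404, 4326, 3939 and 5323 in the same order, so the shallowest group had the most genes. All levels are CPM (reads of a gene per 1000000 reads of the cell), averaged over the cells of a class in each mouse with at least 10 such cells. That left 22 mice for VISp oligodendrocyte-like cells, 19, 4 and 2 for the astrocyte-like cells of VISp, MB/HB and CBX, and 4 for neuron-like cells.

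Oligodendrocytes make the myelin of the central nervous system. Olig2 and Olig1 are neighbouring basic helix-loop-helix genes that set up the lineage, and Olig2 is also known from some astrocytes. Sox10, an HMG-box factor related to Sox8, switches on Myrf, and Myrf then drives the myelin genes. Nkx2-2 and Nkx6-2 are homeodomain factors, Tcf7l2 is a nuclear partner of beta-catenin in Wnt signalling that is used during oligodendrocyte differentiation, and Zfp536 and St18 are zinc finger proteins.

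In the GENCODE M21 annotation of GRCm38 (mm10), Olig2 lies at chr16:91225457-91228677 and Olig1 at chr16:91269772-91271933, both on the plus strand and 41094 bases apart. Nkx6-2 lies on the minus strand at chr7:139579376-139582797 and Zfp536 on the minus strand of the same chromosome at chr7:37472135-37773641. Sox10 lies at chr15:79154908-79165240 and Sox8 at chr17:25565892-25570686, both on the minus strand. Myrf, at chr19:10208272-10240748 on the minus strand, shares its chromosome with Tcf7l2, at chr19:55741820-55933654 on the plus strand. Nkx2-2 lies at chr2:147177546-147194243 on the minus strand and St18 at chr1:6487231-6860940 on the plus strand. An antisense RNA gene, Nkx2-2os, overlaps Nkx2-2, and the strand setting of the counting is not given in the sources used here, so reads of the pair cannot be told apart.

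Olig2 and Nkx6-2 are the 2 members with a promoter in the RefSeq table that fell together in CBX against MB/HB astrocyte-like cells (below), so their sequences just upstream of the annotated start are shown, 5′ to 3′ on the gene's strand (GRCm38.p6). Capitals mark matches to CANNTG, the E-box letters bound by basic helix-loop-helix factors, searched on both strands.
Nkx6-2 (chr7:139582798-139583047, minus strand): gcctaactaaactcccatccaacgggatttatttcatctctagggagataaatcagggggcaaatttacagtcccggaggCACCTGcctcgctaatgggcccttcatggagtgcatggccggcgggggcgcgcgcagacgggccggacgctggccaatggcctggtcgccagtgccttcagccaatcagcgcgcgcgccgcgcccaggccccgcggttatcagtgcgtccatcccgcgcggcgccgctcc
Olig2 (chr16:91225300-91225456, plus strand): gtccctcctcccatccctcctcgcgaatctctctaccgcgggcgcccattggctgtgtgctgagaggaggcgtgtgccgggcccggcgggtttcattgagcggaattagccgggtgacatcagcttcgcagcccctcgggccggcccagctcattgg
The Nkx6-2 stretch of 250 bases held 1 match. The shorter Olig2 stretch, and the 250 bases before its RefSeq start, held 0. Such a match is common, since 66.2% of 32851 promoter windows of 250 bases in the table held at least 1. Of the 6 members in the table, Nkx2-2 had 3 matches, Sox8 had 1, and Zfp536 and both starts of Tcf7l2 had 0. The Sox letters ACAAAG occurred in 1 window, at the second start of Tcf7l2, against 16.5% of all windows, and the TCF letters CTTTGA in none, against 13.8%. The table has no entry for Olig1, Sox10, Myrf or St18.

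All 10 factors were present in VISp oligodendrocyte-like cells, at very unequal levels. Because reads scale with transcript length, levels of different genes are compared only as CPM per kilobase of annotated exon. Olig1 stood highest, with a median over 22 mice of 676.3 CPM per kb (439.1 to 936.7), and no mouse overlapped the next gene, Nkx6-2, at 286.3 (175.4 to 411.8). Sox10 followed at 142.4 (98.96 to 225.3), Olig2 at 85.2 (43.4 to 135.3), St18 at 50.6 (36.5 to 94.6) and Sox8 at 41.3 (15.3 to 67.04). Zfp536 at 22.7 (17.1 to 32.6), Myrf at 19.4 (6.73 to 34.9) and Nkx2-2 at 11.2 (8.49 to 15.7) came next. Tcf7l2 was last at 2.54 (1.64 to 6.13), below every mouse's value for Nkx2-2. From Nkx6-2 down to Nkx2-2, each gene's range over mice overlapped that of its neighbour in the order.

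Sox10, Myrf and St18 separated the oligodendrocyte-like from the astrocyte-like cells of VISp. Sox10 ranged from 301.9 to 687.4 CPM with a median of 434.3 in the 22 mice, and had a read in 97.7% of cells (exact 95% interval 96.5 to 98.5). In VISp astrocyte-like cells its highest mouse was at 0.53 CPM, 6 of 19 mice were at 0, and 2.57% of cells had a read. Myrf ranged from 57.6 to 298.7 CPM (median 165.7) against at most 3.39 CPM in the astrocyte-like cells of VISp, where 11 of 19 mice were at 0. St18 ranged from 236.2 to 611.7 CPM (median 326.8) against 0 to 11.1 (median 0.18). The oligodendrocyte and VISp astrocyte ranges did not overlap for any of these 3 genes. The share of all genes without overlap between these classes is not given here, and the same holds for the factors below. Because the classes were built from expression, a lack of overlap is a description. Shares at or below that of Sox10 in the astrocyte-like cells are read here as background.

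Nkx6-2 and Zfp536 also separated the oligodendrocyte-like from the astrocyte-like cells of the cortex. Nkx6-2 ranged from 334.5 to 785.3 CPM (median 546.06) in oligodendrocyte-like cells, with a read in 98.6% of them, and was at 0 in 16 of 19 VISp astrocyte mice, with a read in 0.68% of cells. Zfp536 ranged from 157.4 to 300.4 CPM (median 209.5) and had a read in 90.2% of oligodendrocyte-like cells, against a median of 0.13 CPM and 6.23% of VISp astrocyte-like cells. Neither gene's ranges overlapped between these classes. Zfp536 also had a read in 59 of 84 neuron-like cells from VISp (70.2%).

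The other 5 factors were shared with cortical astrocyte-like cells. Olig1 ranged from 949.2 to 2025 CPM (median 1462) in oligodendrocyte-like cells and from 77.7 to 318.5 (median 156.4) in VISp astrocyte-like cells, where 67.3% of cells had a read (63.7 to 70.6). The medians differed 9.35-fold and no mouse overlapped. Olig2 ranged from 109.9 to 342.3 CPM (median 215.5) against 16.7 to 171.1 (median 48.4), so the highest astrocyte mice reached into the oligodendrocyte range. Sox8 overlapped as well, with 47.7 to 209.03 CPM (median 128.6) against 14.3 to 109.2 (median 55.5). Sox9, the related factor that marks astrocytes, ran the other way, with a median of 4.59 CPM in oligodendrocyte-like and 417.5 CPM in VISp astrocyte-like cells. Nkx2-2 ranged from 24.4 to 45.2 CPM (median 32.2) against 0 to 15.5 (median 6.71), with no overlap.

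Tcf7l2 was the one member that stood higher in astrocyte-like cells. It ranged from 14.4 to 53.8 CPM (median 22.3) in VISp oligodendrocyte-like cells and from 68.8 to 180.9 (median 102.4) in VISp astrocyte-like cells, with no overlap and medians 4.60-fold apart. A read was found in 48.9% of oligodendrocyte-like and 84.7% of VISp astrocyte-like cells. The order was the same after each cell was thinned to 100000 reads, at 39.9% and 79.4%. No test was made of any difference between classes, since the classes were built from the expression of the same cells.

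**Figure D1:**
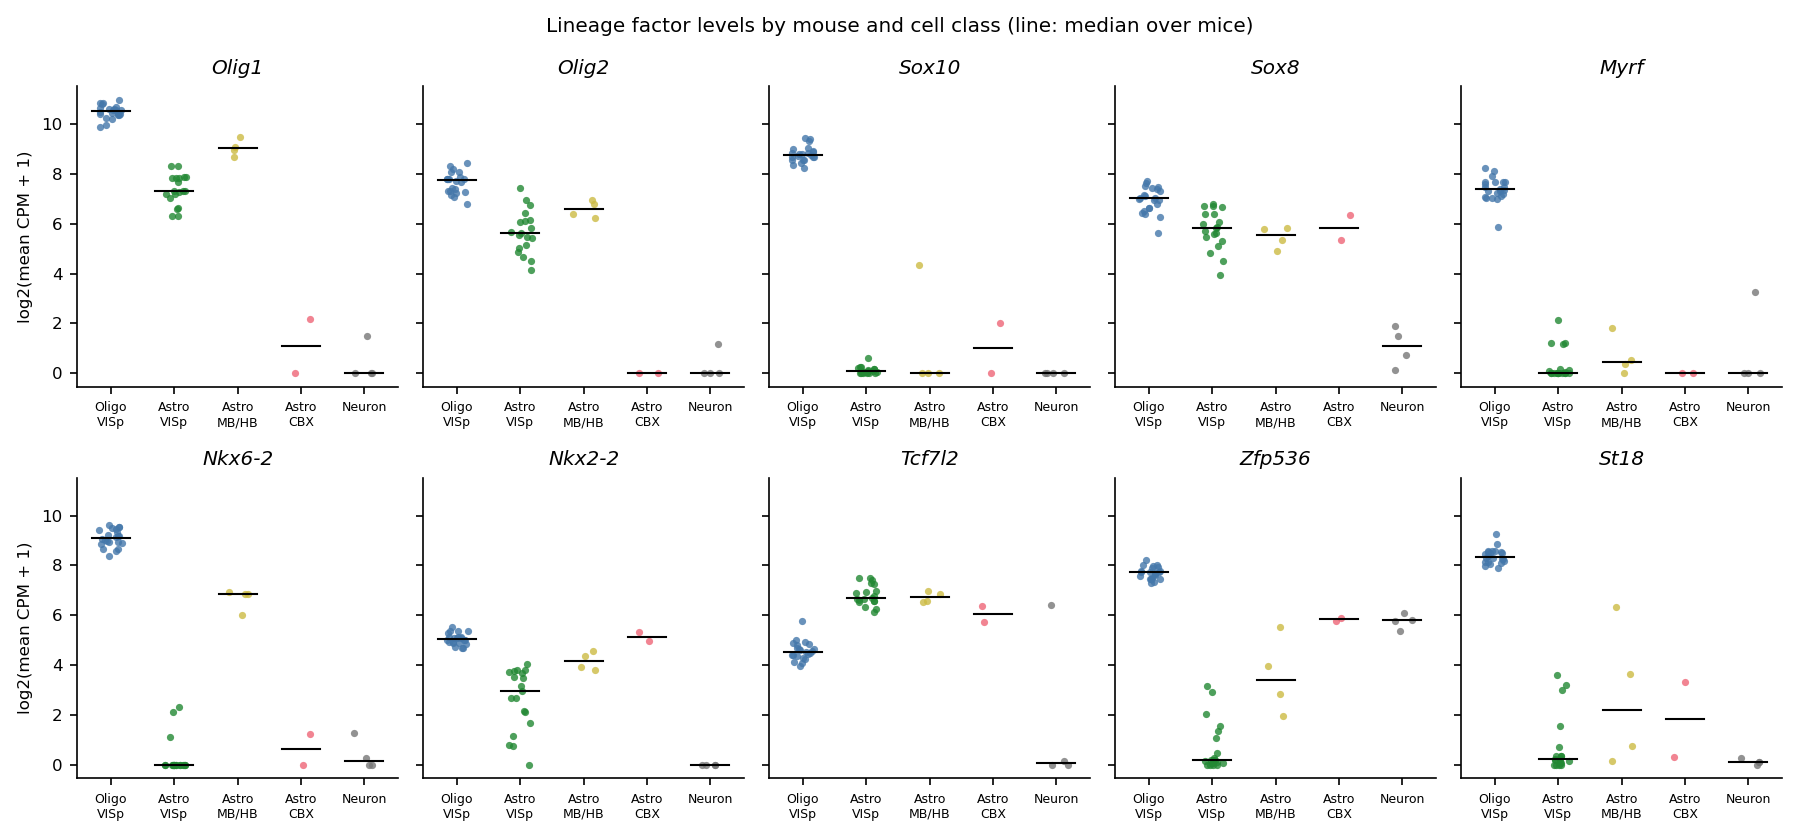
Level of each factor as log2(mean CPM + 1) on the vertical axis, with 1 point per mouse and a line at the median, in oligodendrocyte-like cells from VISp (22 mice), astrocyte-like cells from VISp (19), MB/HB (4) and CBX (2), and neuron-like cells (4). The median of Tcf7l2 is higher in the astrocyte-like groups than in oligodendrocyte-like cells, with mouse ranges that overlap for CBX. Nkx6-2 reaches astrocyte-like cells only in MB/HB, and Olig1 and Olig2 are near 0 in CBX.

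The expression of Olig1 and Olig2 in astrocyte-like cells differed between the tissues. In CBX both genes were nearly absent: Olig1 was at 3.50 CPM in eHGT_375m mouse 1 and at 0 in mouse 2, and Olig2 was at 0 in both. Olig1 had a read in 1 of 81 CBX cells (1.23%, exact 95% interval 0.031 to 6.69), which carried all 92 reads. Olig2 had a read in 0 of 81 cells, which by the limit of 3 cells allows a share of up to 3.70% (upper end of the exact 95% interval 4.45%). In MB/HB, Olig1 was higher than in any VISp mouse, at 502.96, 716.3, 413.6 and 537.7 CPM, with a read in 82% of cells. Olig2 in the same mice was at 82.7, 123.8, 73.5 and 111.2 CPM, within the VISp range.

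The 3 tissues were compared with limma in 1 model of 25 mice. That Olig1 and Olig2 differ between regions in these data was known when the factors were listed. Their p-values below are therefore no independent support for that difference. Olig1 fell in CBX against VISp by 6.28 on the log2(mean CPM + 1) scale (SE 0.44, limma adjusted p = 3.3e-12), and Olig2 by 5.67 (SE 0.55, adjusted p = 2.8e-09). Both CBX mice lay below all 19 VISp mice for both genes. Ranges over mice did not overlap in 12.3% of the 2883 tested genes in this comparison. Set against a floor of 3 reads over the whole CBX group, the mean of Olig2 was 660-fold higher in VISp and 1085-fold higher in MB/HB. This floor takes reads as independent of each other, while the 92 reads of Olig1 in CBX came from 1 cell. The 2 folds are therefore not lower limits. Olig1 rose in MB/HB against VISp by 1.69 (SE 0.33, limma adjusted p = 0.000409), and all 4 MB/HB mice lay above all 19 VISp mice. Ranges did not overlap in 3.33% of all tested genes there. The difference in Olig2, 0.92 (SE 0.41, adjusted p = 0.152), did not pass. CBX against MB/HB gave the widest gaps, where Olig1 fell by 7.97 (SE 0.52, adjusted p = 8.8e-13) and Olig2 by 6.59 (SE 0.65, adjusted p = 6.7e-09). The added 1 CPM makes these values understate changes in low genes.

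A read of both Olig1 and Olig2 was found in a minority of cortical astrocyte-like cells, where Olig2 had a read in 26.8% of cells. Of 739 VISp astrocyte-like cells, 19.9% had a read of both genes, 51 had Olig2 alone and 25.8% had neither. Olig1 was read in 74.2% of cells with Olig2 and in 64.7% of cells without it. In MB/HB, 55 of 150 cells (36.7%) had both, 68 had Olig1 alone, 3 had Olig2 alone and 24 had neither. By contrast, 730 of 940 oligodendrocyte-like cells (77.7%) had both. Leaving out cells that carried RNA of another class left the shares with both at 19.8% in VISp and 38.1% in MB/HB. A cell without a read may still express the gene, so the share with both is a lower limit and the share with neither an upper limit, and all move with level and depth.

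Nkx6-2 was the member that most distinguished MB/HB astrocyte-like cells. It was at 120.4, 115.83, 63.7 and 115.79 CPM in MB/HB, against 0 to 3.99 CPM in VISp and 0 and 1.34 CPM in CBX. It rose in MB/HB against VISp by 6.38 on the log2 scale (SE 0.45, limma adjusted p = 2.6e-12) and fell in CBX against MB/HB by 6.06 (SE 0.70, adjusted p = 1.9e-07). Only 40 of 150 MB/HB cells (26.7%, interval 19.8 to 34.5) had a read, against 0.68% in VISp and 2.47% in CBX. The 40 cells with a read and the 110 without had Olig1 at 479.8 and 551.5 CPM and Mbp, a myelin gene, at 1105 and 1196 CPM. Agt, the angiotensinogen gene, was at 3325 and 2167 CPM in them. These are means over cells of the same 4 mice, with no test. The related gene Nkx6-1, a homeodomain factor of the ventral neural tube, also rose in MB/HB against VISp, from 0 to 5.35 CPM (adjusted p = 4.7e-09).

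Zfp536 rose in astrocyte-like cells of both regions outside the cortex. In CBX it was at 54.2 and 58.6 CPM with a read in 65.4% of cells, above the highest VISp mouse at 8.01 CPM, and it differed from VISp by 5.12 on the log2 scale (SE 0.82, limma adjusted p = 2.3e-05). In MB/HB it was at 14.4, 6.24, 2.90 and 44.9 CPM, overlapping the VISp range, and the difference was 2.85 (SE 0.61, adjusted p = 0.00133). Without MGT_E160m mouse 2 the MB/HB difference was 2.20 (adjusted p = 0.0205), and on the plates that held more than 1 tissue, where 2 MB/HB mice could be fitted, it was 2.40 and did not pass (adjusted p = 0.123). CBX against MB/HB, at 2.27 (adjusted p = 0.16), did not pass, but did without MGT_E160m mouse 2 (2.92, adjusted p = 0.0458).

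Nkx2-2 and Tcf7l2 leaned in opposite directions in CBX, and neither passed. In CBX against VISp, the ranges over mice did not overlap in 12.3% of all tested genes, and Nkx2-2 was among these. It was at 39.3 and 29.9 CPM in CBX, above all 19 VISp mice and at the oligodendrocyte level. It had a read in 80.2% of CBX cells against 14.6% in VISp. Its log2 difference from VISp was 2.52 (SE 0.85, limma adjusted p = 0.0542), and it passed under 5 of 20 other settings, among them the summing of reads (adjusted p = 0.0473). In MB/HB it was at 19.5, 14.2, 13.1 and 22.3 CPM (difference 1.54, adjusted p = 0.119). Tcf7l2 was at 51.9 and 80.6 CPM in CBX (difference from VISp -0.78, adjusted p = 0.0994) and at 125.7, 95.2, 90.95 and 113.2 CPM in MB/HB (-0.09, adjusted p = 0.846).

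The remaining 4 factors gave no regional call. Sox8 was at 55.1, 29.1, 54.4 and 39.4 CPM in MB/HB and at 79.7 and 39.7 CPM in CBX, all within the VISp range. Its log2 differences from VISp were -0.30 in MB/HB (adjusted p = 0.702) and 0.08 in CBX (adjusted p = 0.956). Sox10 and Myrf stayed near 0 in every tissue, with the exception of Sox10 in MGT_E160m mouse 2 at 19.2 CPM. St18 was at 0.12, 11.5, 0.66 and 78.8 CPM in MB/HB and at 0.25 and 8.87 CPM in CBX. Its MB/HB difference of 1.96 (limma adjusted p = 0.11) did not pass, but passed under 4 of 19 other settings. These were the fits without eHGT_381h mouse 1 (2.81, adjusted p = 0.027), without MGT_E160m mouse 1 (2.62, adjusted p = 0.0455), without cells carrying RNA of another class (2.05, adjusted p = 0.0309) and without cells with reads of at least 2 of Mog, Mag, Opalin and Ermn (2.18, adjusted p = 0.00673). The difference dropped to 0.76 (adjusted p = 0.644) without MGT_E160m mouse 2.

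Against these counts of members called (3 of 10 in each comparison) stand the shares of all 2883 tested genes that were called: 11.4% in CBX against VISp, 12.1% in MB/HB against VISp and 8.53% in CBX against MB/HB. The 3 comparisons share their mice in pairs. Olig1 is among the called members in each of them, and its regional difference was known beforehand. The median log2 difference over the 10 members was 0.20, 1.25 and -0.69, against -0.06, -0.05 and 0.0 over all tested genes. All MB/HB and CBX cells came from plates with the AB prefix. Within AB plates alone the called differences of Olig1, Olig2, Nkx6-2 and Zfp536 were called again, for example Olig1 at -6.25 in CBX and 1.72 in MB/HB, and Nkx6-2 at 6.46. Plates held several mice, and 5 of them held astrocyte-like cells of more than 1 tissue. With cells of those 5 plates alone (13 VISp, 2 MB/HB and 2 CBX mice), 8 of the 9 called differences passed again, the exception being Zfp536 in MB/HB. Within single plates, with at least 5 cells per mouse, each tissue outside the cortex met VISp on 4 plates. The same CBX and MB/HB mice recur across these plates, so the plates are not independent of each other. The share of all genes with such an order within plates is not given here. Olig1 in CBX lay below every VISp mouse and in MB/HB above every one on 4 of 4 plates. On the plate with the most astrocyte-like cells, it was at 332.8 to 785.9 CPM in 3 MB/HB mice, at 140.9 to 318.5 in 5 VISp mice and at 0 in 1 CBX mouse. Nkx6-2 in MB/HB and Zfp536 in CBX lay above all VISp mice of the plate on 4 of 4, and Olig2 in CBX below all on 4 of 4. Zfp536 in MB/HB lay above all VISp mice of the plate on 2 of 4.

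**Figure D2:**
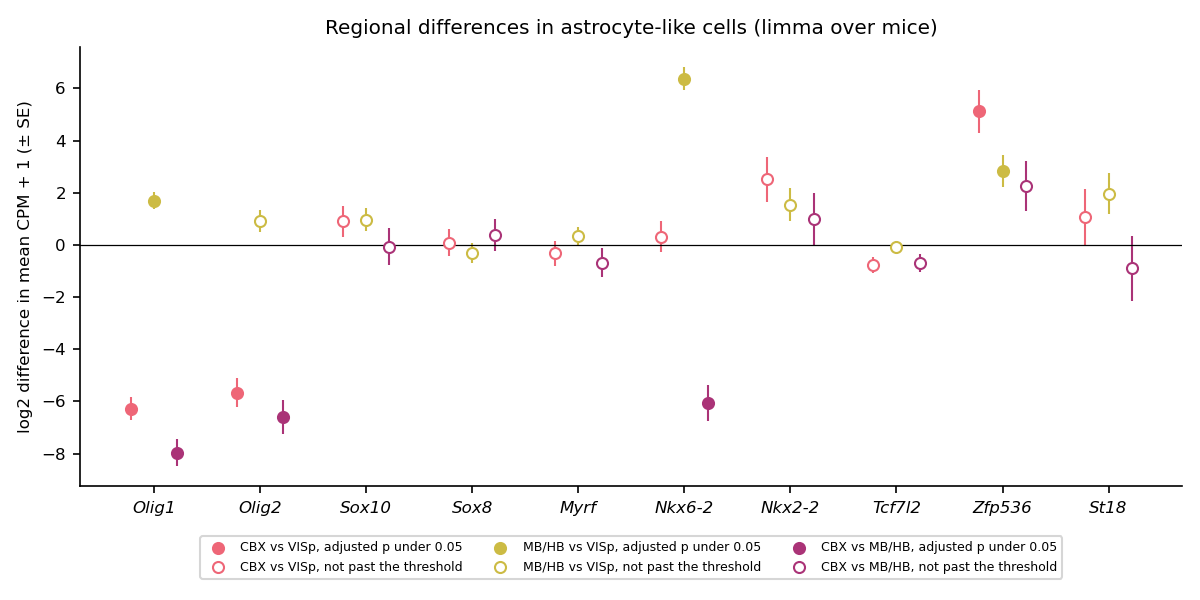
Differences in log2(mean CPM + 1) of astrocyte-like cells between tissues (vertical axis, ± SE from limma over 25 mice) for each factor. Filled points passed an adjusted p of 0.05: Olig1 and Olig2 are below 0 in both CBX comparisons, Nkx6-2 is 6.38 above VISp in MB/HB, and Zfp536 is above 0 in both comparisons with VISp.

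RNA of oligodendrocytes was present at a low level in all astrocyte-like groups. The 12 oligodendrocyte markers summed to 171.1 to 1311 CPM in VISp astrocyte-like cells (median 393.2), 817.9 to 6234 in MB/HB and 1935 and 2223 in CBX, against 63420 to 88170 CPM in oligodendrocyte-like cells. In CBX, 3 of the 12 were at 0 in both mice, and Cnp, a myelin enzyme gene, rose there against VISp to 1900 CPM from 241.8 (limma adjusted p = 1.2e-09). MGT_E160m mouse 2 stood apart in MB/HB at 6234 CPM with 12 of 12 markers detected, against 1014, 1483 and 817.9 CPM in the other 3, where 9, 9 and 6 were detected.

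The levels of the factors in MB/HB are set here beside that marker RNA. Each mouse's sum of the 12 markers, multiplied by the median ratio of a factor to the markers in VISp oligodendrocyte-like cells of other mice, gives a reference level. For Olig1 this level was 18.2, 26.6, 14.7 and 111.8 CPM in the 4 mice, and the measured level 502.96, 716.3, 413.6 and 537.7. The reference level of Nkx6-2 was 6.97, 10.202, 5.63 and 42.9 CPM, and the measured level 120.4, 115.83, 63.7 and 115.79. That of Sox10 was 5.52, 8.08, 4.46 and 33.96 CPM, and it was measured at 0, 0, 0 and 19.2. St18, at 0.12, 11.5, 0.66 and 78.8 CPM, and Zfp536, at 14.4, 6.24, 2.90 and 44.9, had reference levels of 4.16, 6.08, 3.36 and 25.6 and of 2.61, 3.81, 2.10 and 16.03. Olig1 and Nkx6-2 were above this level in 4 of 4 MB/HB mice, Sox10 was below it in 4, and St18 was below it in 2. The ratio in oligodendrocytes of MB/HB was not measured, and the part of oligodendrocyte RNA in these levels was not tested.

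Without the 11 MB/HB, 8 VISp and 5 CBX cells with at least 2 of the 4 myelin reads, Olig1 in MB/HB differed from VISp by 1.74 (adjusted p = 0.000405), Nkx6-2 by 6.45 (adjusted p = 2.8e-12) and Zfp536 by 3.05 (adjusted p = 9.4e-05). Markers of oligodendrocyte precursors, the dividing cells that also express Olig1 and Olig2, were low. Pdgfra was at most 1.02 CPM in VISp, 2.25 in MB/HB and 1.87 in CBX astrocyte-like mice, and Cspg4 at most 8.64, 9.22 and 0. The 8 precursor markers summed to 5.03 to 51.4 CPM in VISp, 112.6 to 221.5 in MB/HB and 68.6 and 73.7 in CBX, and the part of this difference in the results was not tested.

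**Figure D3:**
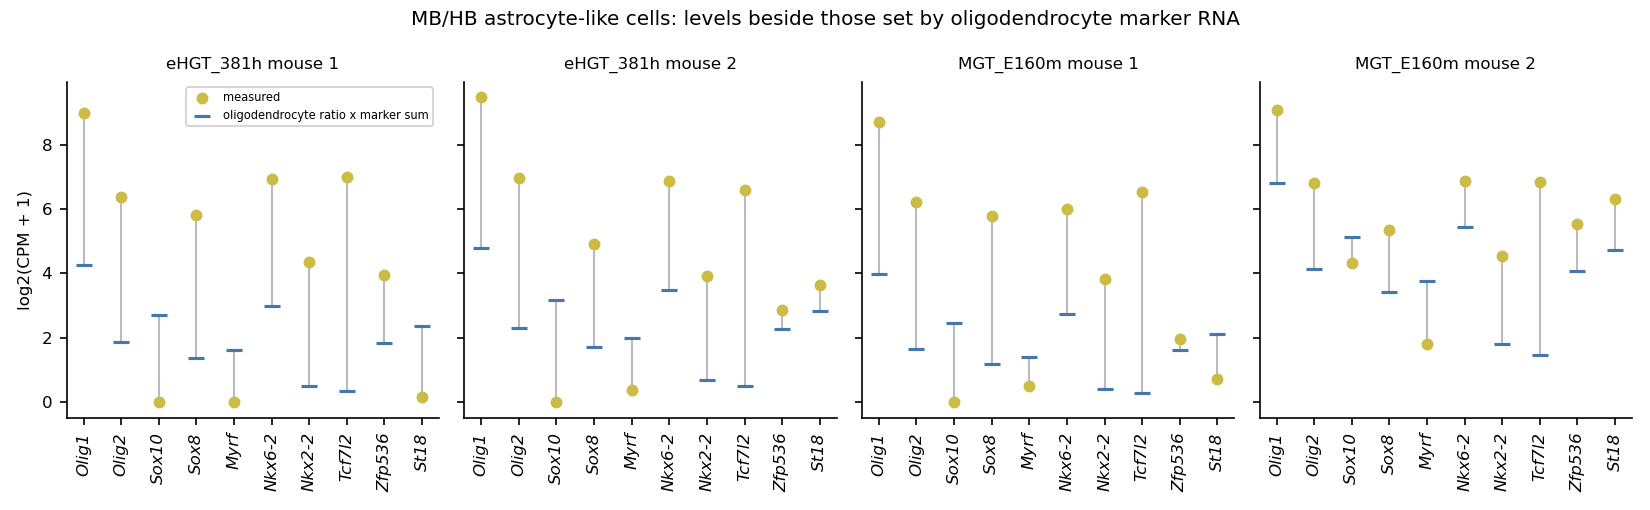
Each panel is 1 MB/HB mouse, with log2(CPM + 1) of the 10 factors in astrocyte-like cells on the vertical axis (circles) and the reference level of each factor, the mouse's sum of the 12 oligodendrocyte markers multiplied by the median ratio in VISp oligodendrocyte-like cells (dashes). Olig1, Olig2, Sox8, Nkx6-2, Nkx2-2, Tcf7l2 and Zfp536 lie above their dashes in all 4 mice, and Sox10 and Myrf lie below theirs.

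Other factors and targets of the lineage were counted in lists chosen with earlier results known. Their counts are read against the 11.4% of all tested genes called in CBX against VISp and the 12.1% called in MB/HB against VISp, and with 8 to 18 genes a list, 1 or 2 calls are near these shares. Of 12 tested basic helix-loop-helix factors and partners, 0 rose and 3 fell in CBX against VISp, with a median log2 difference of -0.75 against -0.06 over all tested genes. Hes5, a Notch target, fell by 6.16 on the log2 scale, from 81.9 CPM to 0 (limma adjusted p = 3.9e-10), and Id2, an inhibitor of these factors, fell by 2.03 (adjusted p = 3.6e-07). In MB/HB against VISp 1 rose and 3 fell (median -0.16, all genes -0.05), with Id4, another inhibitor, falling by 2.54, from 577.8 to 127.7 CPM (adjusted p = 6.4e-08). Of 10 Sox factors, 0 rose and 2 fell in CBX (median -0.75), where Sox6 fell by 1.52 (adjusted p = 0.00277), and 1 rose and 3 fell in MB/HB (median 0.06), where Sox2 fell by 1.41 (adjusted p = 0.000338) and Sox9 by 0.95 (adjusted p = 0.000463).

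Of 10 genes of the Wnt pathway around Tcf7l2, 0 rose and 2 fell in CBX against VISp (median -0.71). Lef1, a DNA-binding relative of Tcf7l2, fell by 4.74, from 29.7 to 0.07 CPM (adjusted p = 2.6e-05), and Znrf3, which removes Wnt receptors, fell by 1.43 (adjusted p = 0.014). In MB/HB 1 fell, Nkd1, by 2.69 (adjusted p = 0.0027), and 0 rose (median 0.05). Of 10 zinc finger and homeobox factors, 2 fell in CBX, where Zeb1 fell by 2.76 (adjusted p = 4.1e-07), and 1 rose and 1 fell in MB/HB (medians 0.07 and 0.09). Of 8 chromatin regulators limma called 0 in either comparison with VISp (medians 0.53 and -0.34), where 11.4% and 12.1% of all genes were called. Of 18 myelin genes and targets of Sox10 or Myrf, 2 rose and 1 fell in CBX (median 0.16), where Trf, the transferrin gene, rose by 9.38, from 15.8 to 4589 CPM (limma adjusted p = 0.000112), and 3 rose and 0 fell in MB/HB (median 1.32), where Aspa, an enzyme gene of oligodendrocytes, rose by 3.91 (limma adjusted p = 0.00188). The 3 of 18 called in each comparison stand against the same shares of all genes.

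Within the cortex, no factor passed a test for differences among vectors. Among the 12 mice of 5 vectors with at least 2 mice of oligodendrocyte-like cells, a limma F-test called 0 of 2241 genes (0.0%), with 5.53% at an unadjusted p under 0.05. The member with the lowest unadjusted p was Sox8 (limma p = 0.0635, adjusted p = 0.845). Among the 14 mice of 7 vectors with astrocyte-like cells it called 0 of 2602 genes (0.0%), with 5.15% at an unadjusted p under 0.05. St18 had the lowest among the members (limma p = 0.00416, adjusted p = 0.884), highest with eHGT_380h, at 6.98 and 11.1 CPM in its 2 mice. Sox10 and Nkx6-2 were too low in VISp astrocyte-like cells to be tested in that F-test. Over the 22 mice with oligodendrocyte-like cells the spread was narrowest for Nkx2-2, with a coefficient of variation of 16.7%, and widest for Tcf7l2, at 33.9%. Without its highest mouse, at 53.8 CPM, the value for Tcf7l2 was 20.5%, and Sox8 then had the widest spread, at 32.5%. The 16 mice on AB plates and the 6 on SM plates overlapped for every factor, with the largest ratios of medians for St18, at 354.5 and 284.4 CPM, and Zfp536, at 216.2 and 173.5 CPM (1.25 for each).

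Within the VISp oligodendrocyte-like cells, levels of the factors moved across the 4 clusters, which is a description, since the clusters come from the same cells. Cluster 5, with Ptgds first among its leading genes as in cluster 0, had the lowest Olig1 and Nkx6-2. In the 7 mice with at least 5 of its cells and 5 others, Olig1 was lower in cluster 5 in 7 of 7 (median log2 difference -0.88), Nkx6-2 in 7 of 7 (-0.85) and Sox10 in 7 of 7 (-0.50). Myrf went the other way and was higher in 6 of 7 (0.63). Opalin, a late myelin gene, averaged 3241 CPM in cluster 5 against 2371 and 1773 in clusters 0 and 3. Mbp ran the other way, at 8051 CPM in cluster 5 against 13200, 13750 and 13350 in clusters 0, 3 and 8. Cells of cluster 5 had a median of 3273 genes detected at 440221 reads, against 4215, 4862 and 5444 genes in clusters 0, 3 and 8, and the part of this in the levels was not tested.

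Cluster 8, with 72 cells led by Enpp6, Trf and Klk6, had the lowest mean levels of Olig2 and Tcf7l2. Olig2 was lower there in 7 of 7 mice (median log2 difference -1.19) and Tcf7l2 in 6 of 7 (-1.23), and Olig1 was lower in 7 of 7 by a smaller margin (-0.27). The share of cells with a read of Tcf7l2 ran the other way, at 58.3% in cluster 8 against 33.65% to 55.35% in the other clusters. Cells of cluster 8 had the most genes detected, with a median of 5444, and the part of this was not tested. Enpp6, known from newly formed oligodendrocytes, averaged 772.6 CPM in cluster 8 against 36.5 to 83.9 in the other clusters, and Klk6, known from a mature state, averaged 963.9 against 5.31 to 50.01. Of the other mature markers, Opalin, Il33 and Ptgds averaged 463.3, 603.9 and 1221 CPM there, below the other clusters. Apod went the other way, averaging 11580 CPM in cluster 8 against 4197 to 6571 in the other clusters. St18 and Nkx2-2 showed no common direction in either cluster, with 4 or 5 of 7 mice one way.

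**Figure D4:**
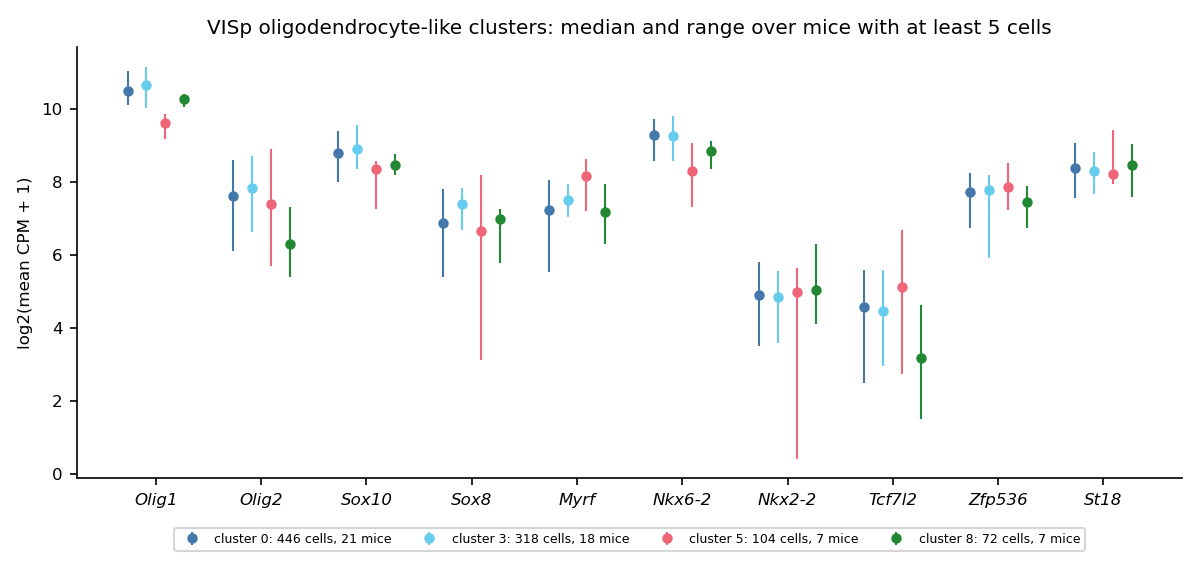
Levels of the factors in the 4 clusters of VISp oligodendrocyte-like cells as log2(mean CPM + 1), with the median (point) and the range (bar) over mice with at least 5 cells of the cluster. Olig1 and Nkx6-2 are lowest in cluster 5, where Myrf is highest, and Olig2 and Tcf7l2 are lowest in cluster 8.

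From cell to cell the factors were only weakly correlated. Across the 940 VISp oligodendrocyte-like cells, after centring on the mouse, the 45 pairs of members had Spearman correlations between -0.04 and 0.19. The highest were Olig1 with Sox10 (0.19), Olig1 with Olig2 (0.18) and Olig1 with Nkx6-2 (0.18), and Myrf was at -0.03 to 0.03 with Nkx2-2, Nkx6-2, St18, Tcf7l2 and Zfp536. Olig1 correlated at 0.24 with Mbp and 0.14 with the number of genes detected, which the cells share as a source. Such low values in sparse counts are no finding.

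Across mice, the genes most like each factor were named by a fixed rule. Over 25 mice with astrocyte-like cells, Hey1, a Notch target, was most like Olig1 (Spearman 0.82), followed by Tril (0.75) and Tnk2 (0.73). Tnk2 (0.67), Wdr6 (0.60) and Rcan2 (0.60) were most like Olig2, and Rab31 (0.72) and Lrrc40 (0.63) were among the 3 most like Sox8. Over the 22 mice with VISp oligodendrocyte-like cells, Tob2 (0.75) and Anp32b (0.69) were among the 3 most like Sox10, and Il31ra (0.74), Ccni (0.74) and Slc12a2 (0.72) most like Myrf. Tle5 (0.75), Sept4 (0.71) and Arhgef2 (0.69) were most like Nkx6-2, and Apc (0.76), Tmtc2 (0.70) and 6430590A07Rik (0.67) most like St18. These are the highest of 1457 and 1295 genes compared, the tissues differ among the 25 mice, and mice of 1 vector share it.

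Neuron-like cells held 1 of the 10 factors in most cells. Zfp536 was at 66.1, 54.9, 53.6 and 40.7 CPM in the 4 mice with at least 10 such cells, close to the CBX astrocyte level, and 65 of 99 cells (65.7%, interval 55.4 to 74.9) had a read. In the same mice Sox10 and Nkx2-2 were at 0, and Olig1 was at most 1.84 CPM. Counted over all 99 cells, Olig1 had a read in 14.1% and Sox8 in 25.3%. After 17 neuron-like cells with RNA of another class were left out, 0 of 82 had both Olig1 and Olig2, against 6 of 99 before. Tcf7l2 was at 2248 and 1414 CPM in 2 of the 15 neuron-like cells from MB/HB and had a read in 3 of them, against 7 of 84 from VISp, where the highest cell was at 37.6 CPM. With so few cells from MB/HB this is a description. In the 25 cells of the unnamed cluster Sox10 had a read in 25 and averaged 412.5 CPM, and Zfp536 in 24.

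**Figure D5:**
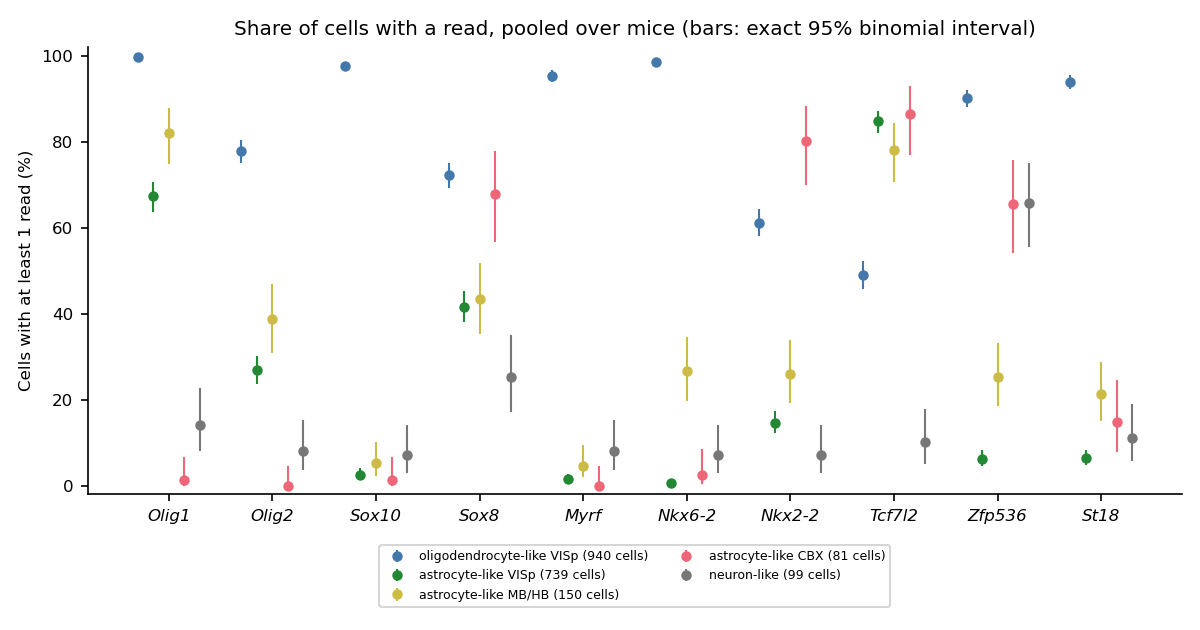
Share of cells with at least 1 read of each factor (vertical axis, in percent), pooled over the mice of a group, with exact 95% binomial intervals that cover counting error only. Sox10, Myrf and Nkx6-2 exceed 95% in oligodendrocyte-like cells, Olig1 is at 82% in MB/HB and 1.23% in CBX astrocyte-like cells, and Zfp536 is near 65% in CBX astrocyte-like and neuron-like cells.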

How the data were processed

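RNA was measured in 2040 single sorted cells (SMARTerv4, per the labels' protocols). The authors deposited 1 table in CPM, and the submitters' processing notes name STAR and mm10, with no versions. Every line summed to 1000000, and all positive values were whole multiples of 1 read within 0.001, which gave the depth: a median of 434102 reads per cell (57873 to 1455022). The same CPM unit holds for deposited columns recorded under other headings because their sums over cells exceed 1000000. Of 32245 gene columns, 5000 were used (176 curated and 4824 drawn at random), so counts of genes refer to them, and 27245 were not used. Since the unit is CPM, no count model was fitted.

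Cells were clustered by the Leiden method (leidenalg 0.10.2, resolution 1) without 62 genes, the members and lists of lineage factors among them, and named from marker lists. Doublets were not called by a tool; cells carrying RNA of another class were left out as an alternative. Mice with at least 10 cells of a class entered limma 3.58.1 (R 4.3.3; empirical Bayes with trend, two-sided, Benjamini-Hochberg at 0.05) on log2(mean CPM + 1), for genes with a mean of at least 1 CPM in at least 2 mice. Plates held cells of several mice, and cells on plates shared between tissues were also fitted alone. The labels give no litter or injection day, and p-values measure the spread between mice. Intervals on shares are exact (Clopper-Pearson, 95%), the limit at 0 is 3 cells or 3 reads, and both cover counting error only. Shares were also taken after thinning to 100000 reads, which left out 5 cells.

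The members and lists were chosen with earlier results of these data known. Named were all 10 members, up to 4 called genes per list and comparison with the largest change, and the 3 genes most like a member among genes of at least 10 CPM in at least 50% of the mice. Cluster markers and genes beside a member were named in addition, and a few genes that the rule names are not reported here. Promoters come from the RefSeq table (GRCm38.p6) and 6 of 10 members matched.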

Additional observations from a re-analysis of the deposited data

Results flagged for a closer look

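Among the 4 MB/HB mice with astrocyte-like cells, the 10 factors were screened for a mouse far from the other 3, by a rule that chance meets in about 1 of 20 groups. It picked out 2 factors. Sox10 was at 19.2 CPM in MGT_E160m mouse 2 and at 0 in the other 3. With 3 mice at 0, any level above 0 in the fourth meets the rule, so the rate of 1 in 20 does not apply to it. That mouse also had the highest sum of the 12 oligodendrocyte markers, 6234 CPM, against 817.9 to 1483 in the other 3, and the part of these in the level was not tested. Nkx6-2 was lowest in MGT_E160m mouse 1, at 63.7 CPM, against 115.79 to 120.4 in the other 3, and all 4 were above the highest VISp mouse at 3.99 CPM.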

How the results depend on the processing

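The 9 regional differences of members that passed (Olig1, Olig2 and Zfp536 in CBX against VISp; Olig1, Nkx6-2 and Zfp536 in MB/HB against VISp; Olig1, Olig2 and Nkx6-2 in CBX against MB/HB) kept direction and significance under every alternative run but 1, which included other pseudocounts, class calls, thinning, AB plates only and each CBX or MB/HB mouse left out. The exception was Zfp536 in MB/HB against VISp on the plates shared between tissues (2.40, limma adjusted p = 0.123), where 2 MB/HB mice could be fitted and 7.73% of genes were called in that comparison. There Sox8 was -0.070 in CBX, and Myrf -0.20 and Tcf7l2 0.12 in MB/HB, against VISp, all reversed and none called. The alternatives that left out cells with myelin reads, summed reads over cells or kept shared plates, and those for median levels, were chosen after seeing the data. With 1 mouse left out, 6.36% to 12.4% of tested genes were called in CBX against VISp, 9.68% to 12.8% in MB/HB against VISp and 4.44% to 9.5% in CBX against MB/HB. The low ends came without a CBX mouse: 6.91% and 6.36% against VISp without eHGT_375m mouse 1 and mouse 2, and 4.85% and 4.44% against MB/HB. The lone CBX mouse was then assumed to vary like the other groups. Averaging log2(CPM + 1) over cells called 38.7% in CBX against VISp and 40.1% in CBX against MB/HB. Of these, 82.3% and 87.2% were higher in CBX (50.3% and 45.9% in the model of the report), and 32.6% of calls were higher in MB/HB against VISp (53.2% before). The median over all genes was then 0.42, 0.65 and -0.25, and Sox8 was called in CBX (1.35 against VISp, 1.81 against MB/HB).

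The reversals were of differences not called in the report, and the cause was not tested. In CBX against VISp, Sox8 ranged from -0.41 to 0.57, St18 from -0.43 to 2.55 and Nkx6-2 from -0.29 to 0.94 with a mouse left out. Myrf in MB/HB ranged from -0.022 to 0.58 with a mouse left out. In CBX against MB/HB, Sox10 was 0.94 without eHGT_375m mouse 2, 0.59 at a pseudocount of 0.1, 0.061 with thinned reads, 0.011 without cells with myelin reads and 0.13 with summed reads. Sox8 ranged from -0.12 to 0.87 and St18 from -2.39 to 0.59 with a mouse left out. Among vectors, 0 genes were called with any mouse left out. In oligodendrocyte-like cells a pseudocount of 10 called 0.0446%, no filter 0.115% and the mean of log2 0.0704%. In astrocyte-like cells no filter called 0.367% and the mean of log2 0.0636%. Of 120 alternative medians of members by class, all but 1 moved by less than 1 SD, and Zfp536 in CBX went to 52.7 CPM without cells carrying RNA of another class. No paired analysis was possible because no mouse was in more than 1 of the groups tested, the tissues or the vectors.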
